A study of Homo sapiens with 4 samples.

Results

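The mRNAs of the translation initiation and elongation factors were examined in RNA recovered in a pull-down of Flag-tagged ALKBH5. The set held the gene symbols of the eIF1 to eIF6 and eEF1 and eEF2 families, without their kinases, methyltransferases and read-through loci, plus the poly(A)-binding proteins PABPC1 and PABPC4 and the release factors ETF1 and GSPT1. Of 26830 symbols in the deposited table, 64 belonged to the set, of which 62 are protein-coding genes and 2, EEF1DP3 and EIF3IP1, are pseudogenes.

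The series is an RNA immunoprecipitation with sequencing (RIP-seq) in NOMO-1, an established human line of monocytic acute myeloid leukaemia. ALKBH5 is a demethylase that erases N6-methyladenosine (m6A), an internal mark of mRNA. There were 2 groups of 2 libraries, numbered 1 and 3 in each: Flag-IP, the RNA recovered with an anti-Flag antibody, and input, the RNA before the pull-down. All 4 libraries came from 1 line that overexpressed 3xFlag-tagged ALKBH5 from a lentivirus after puromycin selection and sorting for GFP, with UV crosslinking before lysis. No untagged pull-down is analysed here, so RNA held by the protein and RNA carried along by the procedure cannot be told apart. The labels do not say whether libraries 1 and 3 are separate cultures, and the p-values thus rest on a spread between libraries that may be technical.

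Translation begins when the small ribosomal subunit, loaded with initiator tRNA by eIF2 and held open by eIF1, eIF1A and eIF3, is brought to the capped 5′ end of an mRNA by eIF4F. eIF4F joins the cap-binding protein eIF4E, the scaffold eIF4G and the helicase eIF4A, and eIF4G also contacts poly(A)-binding protein on the tail. Elongation is then driven by eEF1, which delivers aminoacyl-tRNA, and eEF2, which moves the ribosome along. Many mRNAs of this machinery carry a 5′ terminal oligopyrimidine (TOP) tract, a C at the start followed by a run of C and T, through which mTOR signalling adjusts their translation.

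Values are length-normalised transcript abundances (TPM), which correct for transcript length and keep no record of depth, so that no counting error can be given. Structural RNAs took 92.5% and 93.6% of TPM in the 2 Flag-IP libraries, against 96.8% and 96.4% in the inputs. The median tested gene had 2.38 times the TPM in Flag-IP that it had in input. Differences are given mainly after median-ratio scaling, as log2 (TPM + 1) in Flag-IP minus input relative to the typical gene, and beside it on the deposited scale, which counts the share of all RNA. Of 13 monocytic markers, 7 averaged at least 1 TPM and CD14 was listed at 0; their summed TPM was 119.3 to 125.27 in Flag-IP and 65.8 to 79.98 in input. The 3 T cell markers were at 0, and no summed list of B cell, erythroid, epithelial or fibroblast markers passed 0.29 TPM in a library.

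The translation factors tended to be less represented in Flag-IP than the typical gene, the elongation factors and most eIF3 subunits most of all. Those called more represented were EIF4A2, EIF4G1, EIF4G3, EIF4ENIF1 and EIF1B. Of these, EIF4G3 alone kept its call in every alternative processing in which it was tested. Of the 52 members that averaged at least 1 TPM, 25 were lower in Flag-IP relative to the typical gene and 5 were higher, with 22 not passing an adjusted p of 0.05. Over all 6487 genes tested, 18.6% were lower and 22.3% were higher by the same rule. The median difference was −0.33 over the 52 members and −0.01 over all tested genes. Groups did not overlap in the lower direction for 35 members and in the higher direction for 12, where the background was 37.1% and 37.0% of all tested genes. Scaling free of structural RNAs moved the all-gene median to 0.16. With it 16 members were lower and 9 higher, beside 10.1% and 31.4% of all tested genes. Higher genes were then 75.6% of all calls, against 54.5% with median-ratio scaling.

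On the deposited scale most members were higher in Flag-IP, as were most genes. There 36 of the 52 were higher in Flag-IP and 0 were lower by limma, also at an unadjusted p below 0.05, against a background of 86.6% higher and 0.74% lower. Quantile scaling, which undoes this scale, gave 4 higher and 20 lower, beside 19.2% and 18.8% of all tested genes. The median deposited difference was 0.73 for the members and 0.84 for all tested genes. In 45 members both Flag-IP values lay above both input values and in 0 they lay below, where the background was 93.1% and 1.09%. Of the 25 members lower relative to the typical gene, 9 were higher as deposited and 16 did not pass. The summed TPM of all 64 members was 1594.49 and 1348.2 in Flag-IP and 980.35 and 1155.02 in input. As a share of RNA other than structural RNA, however, the members made up 2.13% and 2.10% in Flag-IP, against 3.07% and 3.16% in input. That share rests heavily on 5 elongation factor genes, which held 48.3% and 50.6% of the members' TPM in Flag-IP and 60.4% and 61.5% in input.

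**Figure D1:**
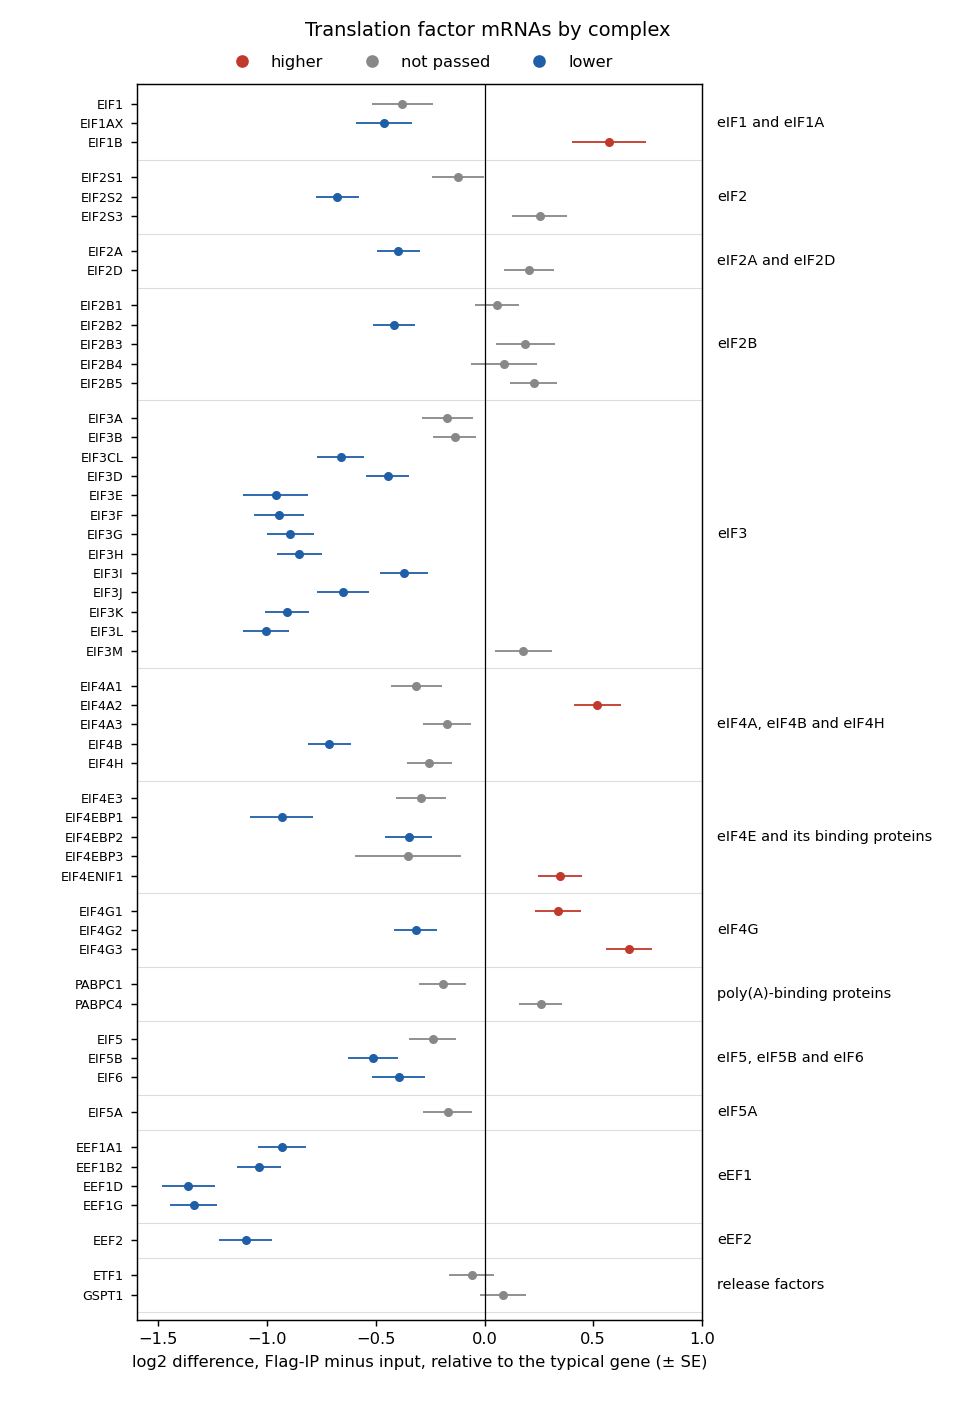
Log2 difference of each of the 52 tested members, Flag-IP minus input, relative to the typical gene (x axis, bars are ± SE of the limma fit, 2 libraries a group), grouped by complex. All 5 elongation factor mRNAs and 10 of 13 eIF3 mRNAs were lower (blue) while EIF4A2, EIF4G1, EIF4G3, EIF4ENIF1 and EIF1B were higher (red). Over all tested genes 18.6% were lower and 22.3% higher. On the deposited scale no member was lower, beside 0.74% of all tested genes.

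The elongation factors included the 3 most abundant members, and all 5 tested lay well below the typical gene. EEF1A1, whose product carries aminoacyl-tRNA to the ribosome (GRCh38 chr6:73515750-73523797, minus strand), had 243.12 and 214.69 TPM in Flag-IP and 171.48 and 193.31 TPM in input. Its Flag-IP values were above both inputs, yet by less than for the typical gene, and the scaled difference was −0.93 ± 0.11 (SE, adjusted p = 0.0022). EEF2, the translocase (chr19:3976056-3985469, minus strand), had 253.29 and 237.63 TPM in Flag-IP and 198.27 and 242.49 TPM in input, a scaled difference of −1.10 ± 0.12 (adjusted p = 0.0019). Its groups overlapped as deposited, with means of 245 ± 11.1 TPM in Flag-IP and 220 ± 31.3 TPM in input (SD, n = 2 each).

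The exchange factor subunits of eEF1, which recharge eEF1A with GTP, were lower as well. EEF1G had 141.87 and 122.36 TPM in Flag-IP against 124.91 and 156.10 TPM in input, a scaled difference of −1.34 ± 0.11 (adjusted p = 9.08e-04). EEF1D had 18.10 and 17.24 TPM in Flag-IP and 17.48 and 22.69 TPM in input, the lowest scaled difference of any tested member at −1.36 ± 0.12 (adjusted p = 0.0012). These were the 2 members with a negative deposited difference, −0.08 for EEF1G and −0.16 for EEF1D, and neither passed the test on that scale. EEF1B2 had 114.34 and 90.12 TPM in Flag-IP and 79.71 and 95.85 TPM in input, and its scaled difference was −1.04 ± 0.10 (adjusted p = 0.0014). The 4 tested eEF1 mRNAs had a median scaled difference of −1.19, against 0.07 as deposited, where 0 of the 4 passed in either direction. Over all tested genes 86.6% were higher and 0.74% lower as deposited.

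Ratios of deposited TPM between members within 1 library are not changed by a scaling factor per library. The ratio of EEF1G to EEF1A1 was 0.584 and 0.570 in Flag-IP, against 0.728 and 0.808 in input, and that of EEF1D to EEF1B2 was 0.158 and 0.191, against 0.219 and 0.237. In both pairs the groups did not overlap, but 2 libraries against 2 cannot give an exact permutation p below 0.333. These pairs and those below were picked after the values were seen, and no share of non-overlap over other gene pairs was computed. For single tested genes on the median-ratio scale, groups did not overlap in the higher direction for 37% and in the lower for 37.1%. Together the 5 elongation factor genes made up 48.3% and 50.6% of the members' summed TPM in Flag-IP and 60.4% and 61.5% in input.

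**Figure D2:**
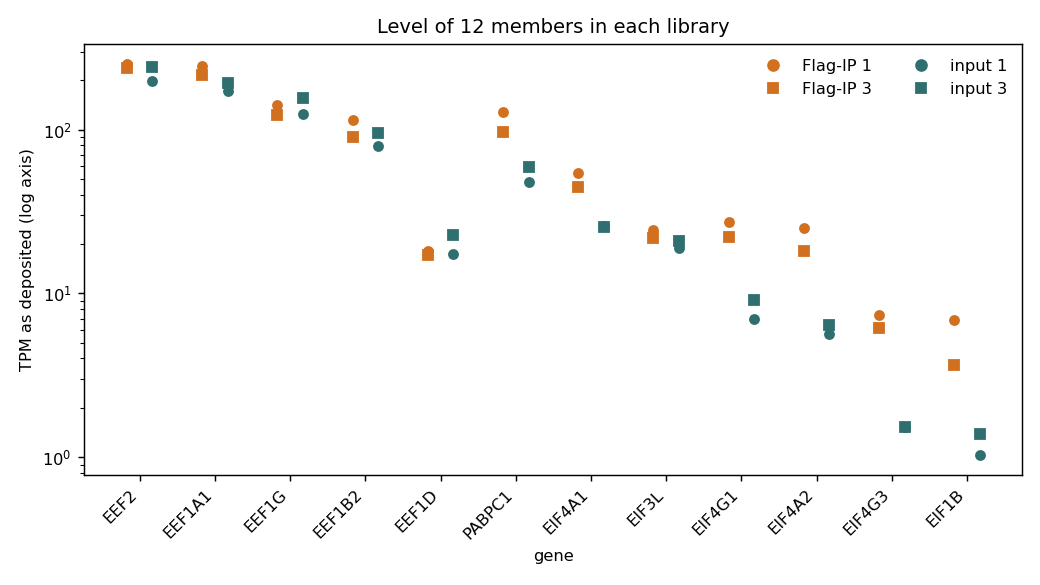
TPM as deposited (log axis) of 12 members in each of the 4 libraries, Flag-IP at the left and input at the right of each gene. The groups lie close together or overlap for EEF2, EEF1A1, EEF1G, EEF1B2, EEF1D and EIF3L, and both Flag-IP values lie well above both inputs for PABPC1, EIF4A1, EIF4G1, EIF4A2, EIF4G3 and EIF1B.

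Several of these mRNAs are known TOP mRNAs, and the bases around their annotated starts are shown for that reason. A RefSeq start (GRCh38.p14) was found for 41 of the 52 tested members, and a TOP-like start was taken as a C at any listed start followed by at least 4 bases of C or T, read on the gene's strand alone. Each line gives 15 bases before the start and 15 from it, 5′ to 3′, with the unbroken run of C and T from the start in capitals. The first group was lower in Flag-IP relative to the typical gene.

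EEF1A1 (chr6:73521018-73521047, minus strand): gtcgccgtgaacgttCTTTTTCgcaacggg
EEF2 (chr19:3985449-3985478, minus strand): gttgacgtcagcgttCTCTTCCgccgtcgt
EEF1B2 (chr2:206159880-206159909, plus strand): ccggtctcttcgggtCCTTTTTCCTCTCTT
EIF3F (chr11:7987322-7987351, plus strand): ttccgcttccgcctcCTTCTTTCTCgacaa
EIF3K (chr19:38619173-38619202, plus strand): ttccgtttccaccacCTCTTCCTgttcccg

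A TOP-like start was also present in EIF4A2, which was higher relative to the typical gene, and in EIF3M and EIF2S3, which did not pass the test on that scale.

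EIF4A2 (chr3:186783562-186783591, plus strand): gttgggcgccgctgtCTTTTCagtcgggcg
EIF3M (chr11:32583816-32583845, plus strand): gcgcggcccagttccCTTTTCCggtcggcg
EIF2S3 (chrX:24054941-24054970, plus strand): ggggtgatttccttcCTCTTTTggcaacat

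The RefSeq starts of EIF4A1 and of EEF1G, although EEF1G is among the known TOP mRNAs counted below, did not match these letters.

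EEF1G (chr11:62573877-62573906, minus strand): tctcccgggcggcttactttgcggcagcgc
EIF4A1 (chr17:7572810-7572839, plus strand): aggcgggcactccgcCCTagtttctaagga

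In all, 12 of the 41 tested members with a RefSeq start had a TOP-like one (29.3%), against 9.14% of tested genes and 5.14% of all RefSeq genes with a start. The share was 8 of 17 among members lower in Flag-IP (47.1%), 1 of 5 among those higher (20.0%) and 3 of 19 among those not passing (15.8%). Over all tested genes it was 16.3% of the lower and 7.61% of the higher ones. The annotated start need not be the one used in NOMO-1, so a match describes these letters alone. Of 10 members known as TOP mRNAs from the literature, 9 were lower relative to the typical gene and 0 higher, with a median of −0.95. The shares over all tested genes were 18.6% lower and 22.3% higher. As deposited, 2 of the 10 were higher, beside 86.6% of all tested genes. All of them had an input mean of at least 10 TPM, where 58.9% of tested genes, structural RNAs left out, were lower relative to the typical gene.

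The eIF3 complex, which recruits the small subunit to the mRNA, was lower relative to the typical gene in 10 of its 13 tested subunits. It was higher in 0, with a median of −0.66, beside 18.6% lower and 22.3% higher over all tested genes. As deposited 6 were higher and 0 lower, with a median of 0.36, beside 86.6% and 0.74%. Among all tested genes with an input mean of at least 10 TPM, structural RNAs left out, 58.9% were lower relative to the typical gene. The eIF3 genes made up 17.5% and 16.8% of the members' summed TPM in Flag-IP and 16.7% and 16.4% in input. EIF3L had 24.46 and 21.79 TPM in Flag-IP and 19.01 and 20.88 TPM in input, a scaled difference of −1.0 ± 0.11 (adjusted p = 0.0017). EIF3K, the most abundant subunit beside EIF3E, had 38.09 and 32.85 TPM in Flag-IP and 26.59 and 29.90 TPM in input, at −0.91 ± 0.10 (adjusted p = 0.0019). EIF3E had 38.97 and 23.77 TPM in Flag-IP and 23.30 and 27.42 TPM in input, at −0.96 ± 0.15 (adjusted p = 0.0051). The EIF3E value of Flag-IP 1 stood well above those of the other 3 libraries, while that of Flag-IP 3 lay between the inputs, so that the groups overlapped as deposited; with quantile scaling EIF3E did not pass (−0.57, adjusted p = 0.072).

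The other lower subunits were EIF3F (−0.95), EIF3G (−0.89), EIF3H (−0.85), EIF3CL (−0.66), EIF3J (−0.65), EIF3D (−0.44) and EIF3I (−0.37). EIF3D contains a cap-binding surface of its own, and EIF3J is a loosely attached subunit. EIF3I lost its call without any 1 library (adjusted p from 0.059 to 0.19) and EIF3D without Flag-IP 1, input 1 or input 3 (0.055, 0.061 and 0.093). With the length trend removed EIF3I was at −0.0047 (adjusted p = 0.98), and EIF3D was at −0.12 with quantile scaling (adjusted p = 0.42). EIF3A, EIF3B and EIF3M did not pass. EIF3A, the large scaffold of the complex, had 19.05 and 14.99 TPM in Flag-IP and 6.83 and 9.37 TPM in input, at −0.17 relative to the typical gene and 0.054 with scaling free of structural RNAs. EIF3B, which binds EIF3A, EIF3G and EIF3I, had 19.73 and 16.17 TPM in Flag-IP against 7.80 and 8.72 TPM in input, at −0.14 and, in scaling free of structural RNAs, 0.088. EIF3M had 13.83 and 8.80 TPM in Flag-IP and 3.64 and 4.37 TPM in input, at 0.18 (adjusted p = 0.32).

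Within the complex the mRNAs were therefore not recovered in equal proportion. EIF3M made up 4.96% and 3.89% of the summed eIF3 TPM in the Flag-IP libraries, against 2.23% and 2.31% in input. EIF3B made up 7.08% and 7.14% in Flag-IP and 4.77% and 4.61% in input. EIF3L moved the other way, with 8.78% and 9.63% in Flag-IP and 11.6% and 11.0% in input. The ratio of EIF3M to EIF3E was 0.355 and 0.370 in Flag-IP and 0.156 and 0.159 in input, and that of EIF3A to EIF3L was 0.779 and 0.688, against 0.359 and 0.449. Neither pair of groups overlapped, but both pairs were picked after the values were seen. The subunit eIF3c is encoded by 2 near-identical genes on chromosome 16: EIF3CL held 21.71 and 19.88 TPM in Flag-IP and 13.31 and 14.86 TPM in input, while EIF3C had 0.40 and 0.20 TPM in Flag-IP and was listed at 0 in both inputs. How reads were split between the copies is uncertain.

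**Figure D3:**
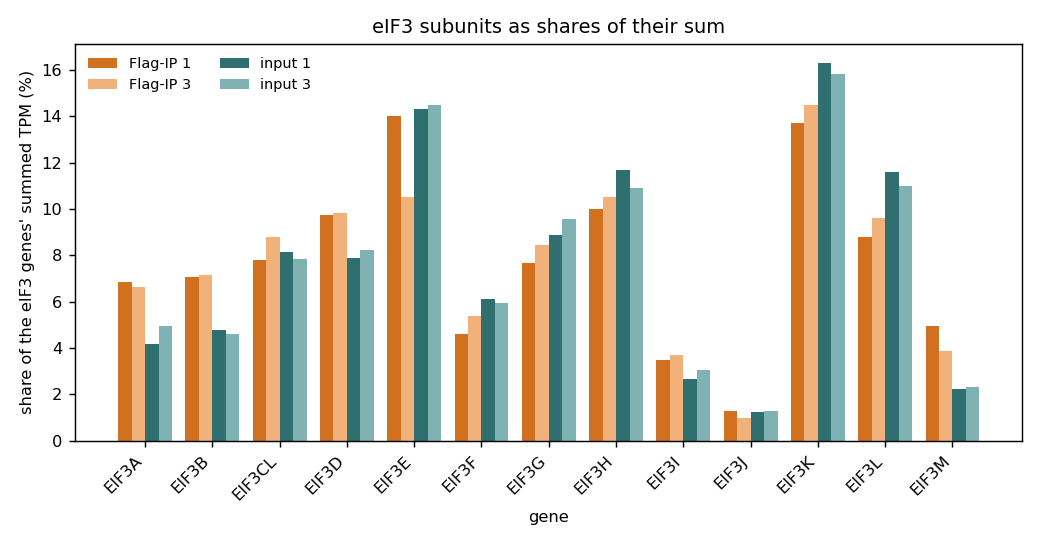
Share of each eIF3 gene in the summed TPM of all eIF3 genes (y axis, percent), 1 bar per library. EIF3A, EIF3B, EIF3D, EIF3I and EIF3M took larger shares in Flag-IP 1 and 3 than in either input, and EIF3F, EIF3G, EIF3H, EIF3K and EIF3L smaller ones; EIF3C, at or near 0, is not drawn.

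Among the helicase mRNAs of the cap-binding complex the paralogues differed. EIF4A1, the main helicase in dividing cells, had 53.95 and 44.78 TPM in Flag-IP and 25.64 and 25.56 TPM in input, at −0.31 ± 0.12 without passing (adjusted p = 0.076; 0.18 with quantile scaling). EIF4A2, its close paralogue (chr3:186783205-186789900, plus strand), had 25.22 and 18.03 TPM in Flag-IP against 5.61 and 6.43 TPM in input. That was 3.59 times the input mean as deposited and 0.52 ± 0.11 above the typical gene (adjusted p = 0.013). Without Flag-IP 1, input 1 or input 3 the adjusted p of EIF4A2 was 0.055, 0.051 and 0.062. The ratio of EIF4A2 to EIF4A1 was 0.467 and 0.403 in Flag-IP and 0.219 and 0.252 in input.

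EIF4A3, the related helicase of the exon junction complex, differed from the typical gene by −0.17 (0.041 with scaling free of structural RNAs) and EIF4H, a helper of eIF4A, by −0.25 (0.0075 with quantile scaling), neither passing. EIF4B, the other helper and a known TOP mRNA, was lower relative to the typical gene: it had 32.70 and 25.80 TPM in Flag-IP and 18.55 and 22.11 TPM in input, at −0.71 ± 0.10 (adjusted p = 0.0036), which was lost with quantile scaling. The 5 genes of this group had a median of −0.25, against 0.0075 with quantile scaling and 0.93 as deposited. All 5 were higher as deposited, as were 86.6% of all tested genes.

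EIF4A1 and EIF4A2 also carry small nucleolar RNAs (snoRNAs) in their spans, on the same strand. Over all members, 15 snoRNA genes lay in 9 host genes, and 8 were tested, of which 3 were lower relative to the typical gene and 0 higher, beside 18.6% and 22.3% of all tested genes. As deposited, 4 of the 8 were higher and 1 lower, beside 86.6% and 0.74%. SNORA63, in EIF4A2, had 129.63 and 106.42 TPM in Flag-IP and 223.12 and 183.74 TPM in input, at −2.04 ± 0.18 (adjusted p = 0.0010), and was lower as deposited too (−0.78). The SNORA63 groups thus lay in the opposite order to those of the host mRNA. SNORA81, also in EIF4A2, had 65.63 and 73.84 TPM in Flag-IP and 44.71 and 43.44 TPM in input, at −0.59 relative to the typical gene (adjusted p = 0.044, and 0.13, 0.16 and 0.066 without Flag-IP 1, input 1 or input 3). SNORD97, in EIF4G2, had 2.17 and 2.19 TPM in Flag-IP and 1.85 and 2.25 TPM in input, at −0.79 (adjusted p = 0.0038). Of the snoRNAs in EIF4A1, SNORA48 differed by −0.99 and SNORD10 by −0.74 without passing. SNORA67 in EIF4A1 and SNORA55 in PABPC4 ranged from 3.33 to 24.27 TPM and from 0 to 5.01 TPM over the libraries, with overlapping groups; both were among those called higher as deposited. Of the 7 microRNA genes in members, 6 were listed at 0 in all libraries.

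**Figure D4:**
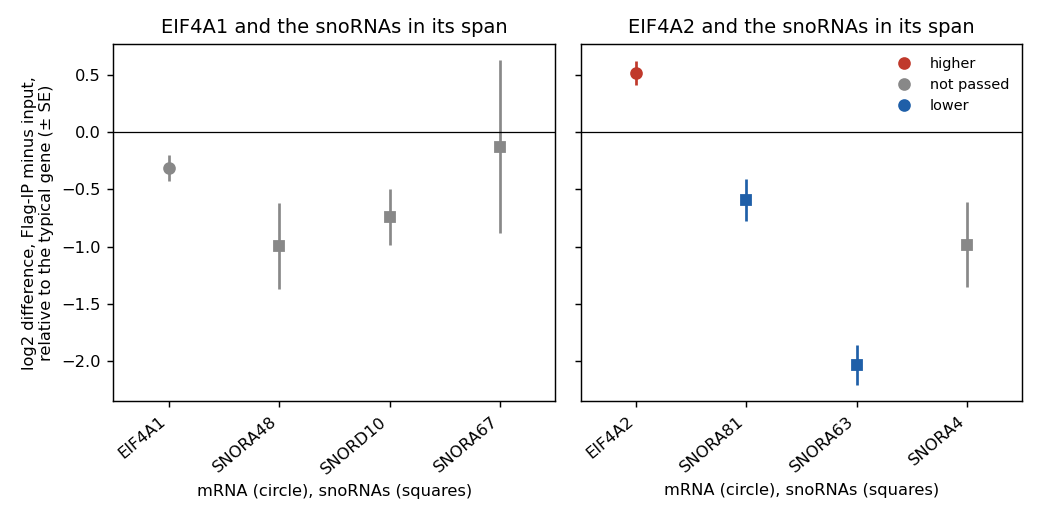
Log2 difference, Flag-IP minus input, relative to the typical gene (y axis, bars are ± SE, 2 libraries a group) for EIF4A1 and EIF4A2 (circles) and the tested snoRNAs in their spans (squares). EIF4A2 lay above the zero line at 0.52 while SNORA63 lay at −2.04 and SNORA81 at −0.59.

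The eIF4G scaffolds, which join the cap-binding protein, the helicase and eIF3, fell on both sides of the typical gene. EIF4G3 had 7.39 and 6.14 TPM in Flag-IP and 1.53 TPM in both inputs. It had the largest positive scaled difference among the tested members, at 0.66 ± 0.11 (adjusted p = 0.0057), and 4.42 times the input mean as deposited; with the length trend removed it was at 0.46, against 1.01 for EIF1B. EIF4G1, the main scaffold, had 27.28 and 22.15 TPM in Flag-IP against 6.96 and 9.11 TPM in input, at 0.34 ± 0.11 (adjusted p = 0.049). That call was lost when any 1 of the 4 libraries was left out, with adjusted p from 0.088 to 0.24, and with the length trend removed (0.16, adjusted p = 0.30), no filter, a pseudocount of 0.1 or the replicate block (adjusted p = 0.10, 0.052 and 0.083).

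EIF4G2, which lacks the eIF4E-binding part and serves non-canonical initiation, was lower: it had 18.73 and 14.36 TPM in Flag-IP and 8.08 and 9.29 TPM in input, at −0.32 ± 0.10 (adjusted p = 0.047), a call also lost without any 1 library (adjusted p from 0.091 to 0.17), and at −0.091 with quantile scaling (adjusted p = 0.56) and −0.092 with scaling free of structural RNAs (adjusted p = 0.52). The ratio of EIF4G1 to EIF4G2 was 1.46 and 1.54 in Flag-IP and 0.861 and 0.981 in input, without overlap. All 3 scaffold mRNAs were higher as deposited, as were 86.6% of all tested genes.

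Neither poly(A)-binding protein passed relative to the typical gene. PABPC1, the main cytoplasmic form, had 128.44 and 96.92 TPM in Flag-IP and 47.54 and 59.43 TPM in input, at −0.19 (adjusted p = 0.20), or 0.40 with quantile scaling. PABPC4, its inducible paralogue, had 13.21 and 11.22 TPM in Flag-IP and 3.73 and 4.58 TPM in input, at 0.26 (adjusted p = 0.086). As deposited, PABPC1 had 2.11 times and PABPC4 2.94 times the input mean in Flag-IP, where the median tested gene had 2.38 times. Both were higher by the test on that scale, as were 86.6% of all tested genes. The ratio of PABPC4 to PABPC1 was 0.103 and 0.116 in Flag-IP and 0.0785 and 0.0771 in input, without overlap. Their share of the members' TPM was 8.88% and 8.02% in Flag-IP and 5.23% and 5.54% in input.

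Of the genes around the cap-binding protein itself, the repressor EIF4EBP1, which blocks eIF4E when mTOR is inactive, had 19.55 and 19.38 TPM in Flag-IP and 16.32 and 15.81 TPM in input. Relative to the typical gene it was lower by −0.93 ± 0.14 (adjusted p = 0.0051). EIF4EBP2 was lower as well, with 1.68 and 1.63 TPM in Flag-IP and 1.05 and 1.06 TPM in input, at −0.35 (adjusted p = 0.047, from 0.067 to 0.20 without any 1 library, and 0.17 with scaling free of structural RNAs, at −0.22). EIF4EBP3 differed by −0.35 and EIF4E3 by −0.29 without passing, and reads of EIF4EBP3 may be shared with the read-through locus ANKHD1-EIF4EBP3.

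EIF4ENIF1, the transporter that carries eIF4E into the nucleus, was higher, with 2.31 and 1.67 TPM in Flag-IP and 0.50 and 0.51 TPM in input, at 0.35 ± 0.10 (adjusted p = 0.036). The call was lost without any 1 library (adjusted p from 0.061 to 0.12) and with quantile scaling (0.18, adjusted p = 0.19). EIF4E, the cap-binding protein, had 0.97 and 0.57 TPM in Flag-IP and 0.32 and 0.45 TPM in input, and EIF4E2 had 1.18 and 1.01 TPM in Flag-IP and 0.58 and 0.80 TPM in input. Both averaged below 1 TPM and were not tested.

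The 3 subunits of eIF2, which brings the initiator tRNA, also differed among themselves. EIF2S2, the beta subunit, was lower relative to the typical gene, with 13.89 and 10.88 TPM in Flag-IP and 8.07 and 9.11 TPM in input, at −0.68 ± 0.10 (adjusted p = 0.0041). EIF2S3, the gamma subunit that holds GTP and the tRNA, had 20.82 and 14.74 TPM in Flag-IP and 5.15 and 7.02 TPM in input, at 0.25 ± 0.12 (adjusted p = 0.15). EIF2S1, the alpha subunit phosphorylated under stress, differed by −0.12 (0.042 with scaling free of structural RNAs). The ratio of EIF2S3 to EIF2S2 was 1.5 and 1.35 in Flag-IP and 0.638 and 0.771 in input, without overlap.

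The exchange factor eIF2B, which recharges eIF2, had a median of 0.09 relative to the typical gene, with 1 of 5 subunits passing. EIF2B5, the catalytic subunit, had 6.95 and 6.12 TPM in Flag-IP and 1.94 and 2.56 TPM in input, at 0.23. EIF2B4 had 4.06 and 4.15 TPM in Flag-IP and 1.70 and 1.44 TPM in input, at 0.09, and EIF2B3 and EIF2B1 differed by 0.19 and 0.06. None of these 4 passed relative to the typical gene, and all 4 were higher as deposited, as were 86.6% of all tested genes. EIF2B2 was the exception at −0.42 ± 0.10 (adjusted p = 0.018), with 1.96 and 1.52 TPM in Flag-IP and 1.10 and 1.26 TPM in input, and its adjusted p was 0.053 to 0.084 without any 1 library.

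EIF2A and EIF2D, which can place tRNA on the ribosome without eIF2, differed in the same way. EIF2A was lower relative to the typical gene, with 5.72 and 4.33 TPM in Flag-IP and 2.77 and 3.10 TPM in input, at −0.40 (adjusted p = 0.024, and from 0.072 to 0.10 without any 1 library), and at −0.19 with the length trend removed (adjusted p = 0.205). EIF2D had 6.52 and 5.32 TPM in Flag-IP and 1.72 and 2.42 TPM in input, at 0.20 (adjusted p = 0.20), so that EIF2D exceeded EIF2A in Flag-IP (ratios 1.14 and 1.23) and fell short of it in input (0.621 and 0.781).

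Of the factors that choose the start codon, EIF1 had 33.25 and 32.42 TPM in Flag-IP and 18.07 and 17.83 TPM in input, at −0.38 ± 0.14 (adjusted p = 0.074; 0.015 with quantile scaling). Its paralogue EIF1B was higher, with 6.86 and 3.65 TPM in Flag-IP and 1.03 and 1.39 TPM in input, at 0.57 ± 0.17 (adjusted p = 0.040). The 2 Flag-IP values of EIF1B were far apart, and without Flag-IP 1 the difference was 0.33 (adjusted p = 0.15); without input 1 or input 3 the adjusted p was 0.12 and 0.068. EIF1AX was lower, with 2.19 and 1.21 TPM in Flag-IP and 1.04 and 1.35 TPM in input, at −0.46 ± 0.13 (adjusted p = 0.033); the call was lost without Flag-IP 3, input 1 or input 3 (0.15, 0.055 and 0.11).

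EIF5B, which joins the ribosomal subunits, had 6.99 and 5.13 TPM in Flag-IP and 3.29 and 4.46 TPM in input, lower at −0.51 (adjusted p = 0.017, and 0.053, 0.081 and 0.079 without Flag-IP 1, Flag-IP 3 or input 3), and −0.31 (0.095) with scaling free of structural RNAs. EIF6, which keeps free large subunits apart from small ones, had 9.84 and 8.41 TPM in Flag-IP and 5.3 and 5.06 TPM in input, lower at −0.39 (adjusted p = 0.046, and 0.16, 0.11 and 0.21 without Flag-IP 1, Flag-IP 3 or input 1); with the length trend removed it was at −0.0072 (adjusted p = 0.97). EIF5, the partner that makes eIF2 hydrolyse GTP, differed by −0.24 without passing. EIF5A, the hypusine-bearing factor that helps stalled ribosomes, had 26.73 and 25.09 TPM in Flag-IP and 11.29 and 13.21 TPM in input, at −0.17 (adjusted p = 0.27; 0.14 with quantile scaling). ETF1, which reads stop codons, had 4.57 and 3.37 TPM in Flag-IP and 1.56 and 1.92 TPM in input, at −0.06, and 0.12 with scaling free of structural RNAs. GSPT1, its GTPase partner, had 4.69 and 3.31 TPM in Flag-IP and 1.37 and 1.67 TPM in input, at 0.08. Neither release factor passed relative to the typical gene, and both were higher as deposited, as were 86.6% of all tested genes.

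The 12 members below the filter include tissue-restricted forms. EEF1A2, the muscle and neuron form of eEF1A, had 0.02 TPM in Flag-IP 1 and was listed at 0 in the other libraries. EEF1E1, a scaffold subunit of the tRNA synthetase complex, had 1.84 and 1.36 TPM in Flag-IP against 0.03 and 0 TPM in input, without a test. EEF1E1 overlaps the read-through locus EEF1E1-BLOC1S5 on its own strand, and how reads were split between the symbols is uncertain. EIF1AD (0.97 and 1.27 TPM in Flag-IP, 0.38 and 0.41 TPM in input) and the pseudogene EEF1DP3 (1.09 and 0.84 TPM in Flag-IP, 0.33 and 0.08 TPM in input) also had both Flag-IP values above both inputs. EIF5A2, EIF5AL1, EIF4E1B, EIF3C and EIF3IP1 stayed at or under 0.40 TPM in every library. EIF1AY lies on the Y chromosome and is counted without a level.

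Regulators and neighbours of the machinery were set beside the members. Of 14 tested kinases, phosphatase subunits and partners that act on these factors, 3 passed above the typical gene and 2 below it, with a median of −0.01, close to the shares over all tested genes (22.3% higher, 18.6% lower). MTOR, the kinase that phosphorylates EIF4EBP1, had 8.70 and 6.86 TPM in Flag-IP against 1.17 and 1.25 TPM in input, at 1.06 (adjusted p = 0.0013). GCN1, which activates the eIF2 kinase GCN2, had 15.91 and 12.69 TPM in Flag-IP and 2.06 and 2.87 TPM in input, at 1.09 (adjusted p = 0.0016). Both differences exceeded that of every tested translation factor on this scale. ATF4, the transcription factor translated when eIF2 is phosphorylated, was lower at −1.05 (adjusted p = 0.0015), with 17.58 and 15.72 TPM in Flag-IP and 13.76 and 16.29 TPM in input, and MLST8, a subunit of the mTOR complexes, was lower at −0.63 (adjusted p = 0.013, and 0.055 without Flag-IP 1).

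Of 19 tested further translation and recycling factors, 4 were higher, among them the helicase DHX29 (0.53) and DPH1 (0.43), which takes part in the diphthamide modification of eEF2. There were 3 lower, among them the TOP mRNA TPT1 (−0.96) and the methionine aminopeptidase METAP2 (−0.69). The counts of this list lay close to the shares over all tested genes, 22.3% higher and 18.6% lower, which also apply to the next list. Of 7 tested mitochondrial translation factors, 1 was higher, the recycling factor MRRF (0.36), and 1 lower, the elongation factor TUFM (−0.42); without any 1 library neither passed, and DPH1 passed without input 3 alone (adjusted p from 0.053 to 0.17 for the lost calls). As deposited, 12, 16 and 7 genes of these lists, in the order given, were higher and 0 lower, where 86.6% and 0.74% of all tested genes were.

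The members called lower included the most abundant ones. Their input mean had a median of 14.2 TPM over 25 genes, against 1.53 TPM over the 5 called higher and 3.20 TPM over the 22 that did not pass. Across the 52 members, the scaled difference ran against the mean input TPM with a Spearman rho of −0.63, and across 5969 tested protein-coding genes rho was −0.54. Input is part of the difference and all points come from the same 4 libraries, so these values are descriptions. Among genes with an input mean of at least 10 TPM, structural RNAs left out, 15 of 20 members were lower (75.0%) and 0 higher, against 58.9% lower and 5.04% higher of 377 genes. The part of abundance in the members' differences was not tested.

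**Figure D5:**
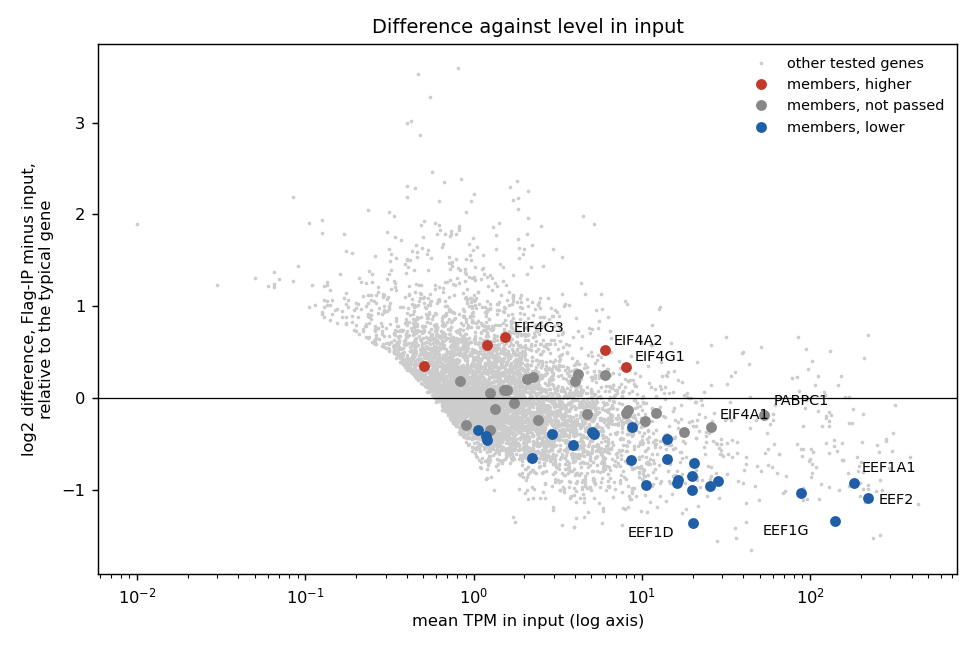
Log2 difference, Flag-IP minus input, relative to the typical gene (y axis) against the mean TPM in input (x axis, log) for 52 members (coloured) and the other tested genes above 0 in input (light grey). Members called lower lie mostly at the abundant end and the 5 called higher at 8.04 TPM or less.

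Length and exon number went with the difference over all genes, and the same measures had smaller coefficients among the members. Transcript features were taken from 1 principal protein-coding transcript per gene in GENCODE 29. The Spearman rho of the difference with coding length was 0.19 over the 52 members and 0.59 over the 5969 genes, and with the number of exons it was 0.29 and 0.57. The 25 lower members had a median coding length of 1071 bases and 10 exons, against 2955 bases and 19 exons for the 5 higher ones and 1302 bases and 12 exons for those not passing. The letters GGACT, a form of the sequence in which m6A is often found, read on the transcript strand, had a median density of 0.723 per kb in lower members, 1.81 per kb in higher members and 0.806 per kb in the rest. The rho with that density was 0.30 over the members and 0.04 over all protein-coding genes. EIF4G3 held 11 such motifs (1.9 per kb) and EIF4G1 held 10 (1.81 per kb), while EIF3E, EIF3G, EIF3K and EIF3L held 0 in the transcript used. Other members ran against this order. EIF3B, which did not pass, held 2.95 per kb, and EIF6 and EIF4EBP1, both called lower, held 2.33 and 1.96 per kb. EIF4A2 and EIF4ENIF1, both called higher, held 1.04 and 1.08 per kb. A match says nothing of methylation, which was not measured in these libraries.

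Several members share sequence or position with other loci. GENCODE names 39 pseudogenes after EEF1A1, 13 each after EIF4A1 and PABPC1, 9 after EIF4B and 8 each after EEF1B2, EEF1D and EEF1G, and reads of these mRNAs may have been split among the copies. EIF4A1 overlaps the read-through locus SENP3-EIF4A1 on its own strand. EIF1B and EIF1AX overlap antisense genes, and the strand setting of the counting is not given in the sources used here.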

How the data were processed

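The submitters' processing notes name STAR, RSEM and the build GRCh38, without versions; their annotation is not given in the sources used here. In all, the authors deposited TPM per gene symbol, rounded to 2 decimals, for 26830 symbols in 4 libraries. TPM keeps no depth, so no counting intervals or detection floors are given. Per the series' design text, RNA was fragmented by sonication after extraction and libraries were made with a stranded mRNA kit.

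The 6487 genes that averaged 1 TPM or more were fitted on log2(TPM + 1), all 4 libraries together, with limma 3.58.1 in R 4.3.3 (eBayes with a mean-variance trend, two-sided, Benjamini-Hochberg over all 6487 genes, adjusted p below 0.05). For the median-ratio scale each library was divided by its median ratio to the geometric mean of genes above 0 in all libraries. There were 2 residual degrees of freedom; prior degrees of freedom were 4.02 on the median-ratio scale and infinite on the deposited scale, where errors come from the trend. A fold on the log2(TPM + 1) scale understates the change of low genes.

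Coordinates, gene types and transcript features came from GENCODE 29 by gene name (23819 symbols matched, 3011 did not), and start sequences from RefSeq GRCh38.p14 (50 members matched). Every tested member that is not a pseudogene was named. Values in every library were required for the 2 most abundant members of each complex, members called against their complex median and the 3 largest differences in each direction; values of other members were added after they were seen, as were the pairs for ratios. Of other lists, the 2 largest differences in each direction were named. The members, lists and naming rule were chosen with earlier results of these data known. On simulated data for this comparison (6367 genes, noise of 0.15 on the log2 scale, median-ratio scale) 100% of the tested genes set 1 or 2 log2 units apart and 0.0646% of unchanged genes were called. Of genes set lower, 43 (1 unit) and 35 (2 units) passed the filter, against 50 each of those set higher. Every simulated gene had the same noise and structural RNAs were not shifted between groups, so these shares need not hold for the real libraries.

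Alternatives were quantile scaling, scaling without structural RNAs, a filter at 5 TPM or none, a smaller pseudocount (0.1), a fit with no trend, a block for replicate number, subtraction of a loess trend with length (span 0.5), and each library left out in turn; a crossed block was added after seeing the data.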

Additional observations from a re-analysis of the deposited data

How the results depend on the processing

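The 5 members called higher in Flag-IP relative to the typical gene numbered 9 of 52 with scaling free of structural RNAs (31.4% of all tested genes were higher) and 1 to 3 with 1 library left out (14.8% to 17.5%) (3 without Flag-IP 3, 1 without each of the others). The 25 lower numbered 16 with scaling free of structural RNAs (10.1% of all genes), 15 of 32 tested with a filter at 5 TPM (23.1% of all genes tested there were lower) and 17 without any 1 library (9.05% to 12.9%). On the deposited scale, 36 members were higher and 0 lower (86.6% and 0.74% of all tested genes). They became 4 and 20 with quantile scaling (19.2% and 18.8%) and 9 and 16 with scaling free of structural RNAs (31.4% and 10.1%). Both scalings undo the deposited scale. The filter at 5 TPM left 20 of 32 higher (82.7% of all genes tested there). The call was kept in every alternative in which the gene was tested by 14 of the 25 lower members, the 5 elongation factors, EIF2S2, EIF3CL, EIF3F, EIF3G, EIF3H, EIF3J, EIF3K, EIF3L and EIF4EBP1, and by 1 of the 5 higher ones, EIF4G3. EIF3E and EIF4B lost theirs with quantile scaling alone.

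Medians of the complexes moved as follows. For eEF1 (−1.19) the median was −0.60 with quantile scaling, −0.95 with scaling free of structural RNAs, −1.03 with no filter, −0.97 with the filter at 5 TPM and −1.11 with the length trend removed. For eIF3 (−0.66) it was −0.49 with quantile scaling and with scaling free of structural RNAs, −0.55 with the filter at 5 TPM, −0.88 with a pseudocount of 0.1 and −0.53 with the length trend removed. For eIF4A, eIF4B and eIF4H (−0.25) it was 0.0075 with quantile scaling, −0.025 with scaling free of structural RNAs and −0.050 with the filter at 5 TPM. For eIF4E and its binding proteins (−0.35) it was −0.21 with scaling free of structural RNAs, −0.73 with the filter at 5 TPM (1 gene), −0.54 with a pseudocount of 0.1 and −0.49 with the length trend removed. For eIF2B (0.09) it was 0.032 with quantile scaling, 0.27 with scaling free of structural RNAs, 0.14 with the length trend removed and 0.027 to 0.16 with 1 library left out. For all members (−0.33) it was −0.23 with quantile scaling, −0.15 with scaling free of structural RNAs, −0.22 with the filter at 5 TPM, −0.41 with a pseudocount of 0.1 and −0.21 with the length trend removed. The cause was not tested.

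The sign of genes that did not pass turned in some settings. With quantile scaling the values were EIF1 0.015, EIF2B1 −0.0094, EIF3A 0.055, EIF3B 0.095, EIF4A1 0.18, EIF4H 0.0075, EIF5A 0.14, PABPC1 0.40 and SNORA67 0.071. With scaling free of structural RNAs they were EIF2S1 0.042, EIF3A 0.054, EIF3B 0.088, EIF4A3 0.041, EIF5A 0.061, ETF1 0.12, PABPC1 0.049 and SNORA67 0.095. With the filter at 5 TPM they were EIF3A 0.029, EIF3B 0.063, EIF4A3 0.017, EIF5A 0.036, PABPC1 0.022 and SNORA67 0.069. With the length trend removed they were EIF4EBP3 0.13, EIF5A 0.19, GSPT1 −0.16 and SNORA67 0.29, and MRRF, called higher otherwise, was at −0.019. With 1 library left out, EIF2B4 ranged from −0.073 to 0.26, SNORA55 from −0.75 to 1.28 and SNORA67 from −1.23 to 0.99.

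Libraries with the same number did not deviate together from their group means (correlation −0.19 across tested genes, −0.47 across the members). This cannot tell whether libraries with the same number came from the same lysate, and the main fit used no pairing. With the replicate block 2 members were higher and 20 lower (19.8% and 16.3% of all genes). With the crossed block, chosen after seeing the data, 4 were higher and 25 lower (21.7% and 19.7% of all genes). Limits: 2 libraries a group from 1 line, no pull-down without the tag, depth unknown, and structural RNAs that take over 90% of TPM, so that the direction of most members depends on what they are set against. Members called higher relative to the typical gene were also higher as deposited. That adds no support, since the median tested gene itself had 2.38 times its input TPM in Flag-IP, and 86.6% of tested genes were higher there. SNORA63 was lower on both scales.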
